A study of Trametes cinnabarina with 16 samples.

Results

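Growth of strain PB94 of Pycnoporus cinnabarinus, a white-rot basidiomycete that is also called Trametes cinnabarina, on cellobiose was compared with culture without an energy source. The comparison took in 6 of the 16 libraries of the series, chosen by their labels: 3 cellobiose libraries and 3 control libraries. Per the labels' protocols, RNA came from whole cultures grown on semi-minimal medium for at least 5 days after inoculation with an agar cube, and all 6 libraries were made with the stranded poly-A mRNA preparation. The other 10 libraries (glucose 1, maltose 3, poplar 3, switchgrass 3) are used below only to place the levels of genes that changed; the poplar and switchgrass libraries were depleted of ribosomal RNA instead. The labels do not say whether the replicates came from different cultures; p-values therefore cover only the spread among these libraries, which may be technical.

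White-rot fungi degrade cellulose and lignin with secreted enzymes. Cellobiose, glucose linked to glucose by a beta bond, is the main soluble product that cellobiohydrolases release from cellulose. It is cleaved to glucose by beta-glucosidases or oxidised by cellobiose dehydrogenase, and it or its derivatives act as a signal for cellulase genes in several filamentous fungi. The deposited tables pair no gene names with their identifiers, and 0 identifiers matched the reference list of 10441 genes of strain BRFM137, so the genes for these enzymes are not located here, and 2 genes that rose and 2 that fell are given by identifier.

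Levels are TPM, a length-corrected transcript abundance; the values sum to 1000000 in each library. Read depth cannot be recovered from them, and some values listed at 0 may be failed estimates. The authors deposited 2 tables whose 16 columns hold the same values under different names (0 of 16 named alike). Here the columns go by their names in the table whose title speaks of expected counts. Under the names of the other table, the libraries called cellobiose and control here are called poplar and switchgrass. Relabelled with the names used here, all 16 columns of that second table follow the sequence of the sample list, from control to switchgrass. With its own names, which begin with switchgrass and poplar, they do not. How this came about was not tested. The tables alone do not settle which names are right, and every group label and direction below rests on this choice.

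The first cellobiose library stood apart from the rest of its group. Its Spearman correlation across the tested genes was 0.891 and 0.894 with the other cellobiose libraries. Those correlated at 0.954 with each other, and the control libraries at 0.930 to 0.950. Cellobiose replicates 2 and 3 each correlated better with control replicates 2 and 3 (0.900 to 0.907) than with cellobiose replicate 1. With control replicate 1 they correlated less well, at 0.889 and 0.883. Cellobiose replicate 1 correlated at 0.822 to 0.851 with the control libraries, lower than with the other cellobiose libraries. It listed 34.8% of transcripts at 0, and the other 5 libraries listed 22.8% to 28.9%. It was the farthest of the 3 cellobiose libraries from the other 2 in 56.4% of tested genes, and no control library was farthest in more than 35.2%. Main counts are therefore also given without it.

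Transcripts were summed to assembly genes, and the 18432 genes with at least 1 TPM in at least 3 of the 6 libraries were tested. On cellobiose 1466 genes rose and 1731 fell relative to control (limma on log2(TPM + 1), Benjamini-Hochberg adjusted p under 0.05), together 3197 genes or 17.3% of those tested (7.95% higher, 9.39% lower). Without the first cellobiose library 1413 genes were higher and 1997 lower. Of the 3197 genes, 3052 could be tested in that fit and 2714 were called in it. Over the 18432 genes the median log2 fold change was -0.0069, close to 0. The groups did not overlap in 39.0% of tested genes (19.1% with all cellobiose values above, 19.9% with all below), and 3999 genes whose groups did not overlap were not called. An exact test of a single gene with 3 libraries against 3 cannot give a two-sided p below 0.1 and was not used.

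**Figure D1:**
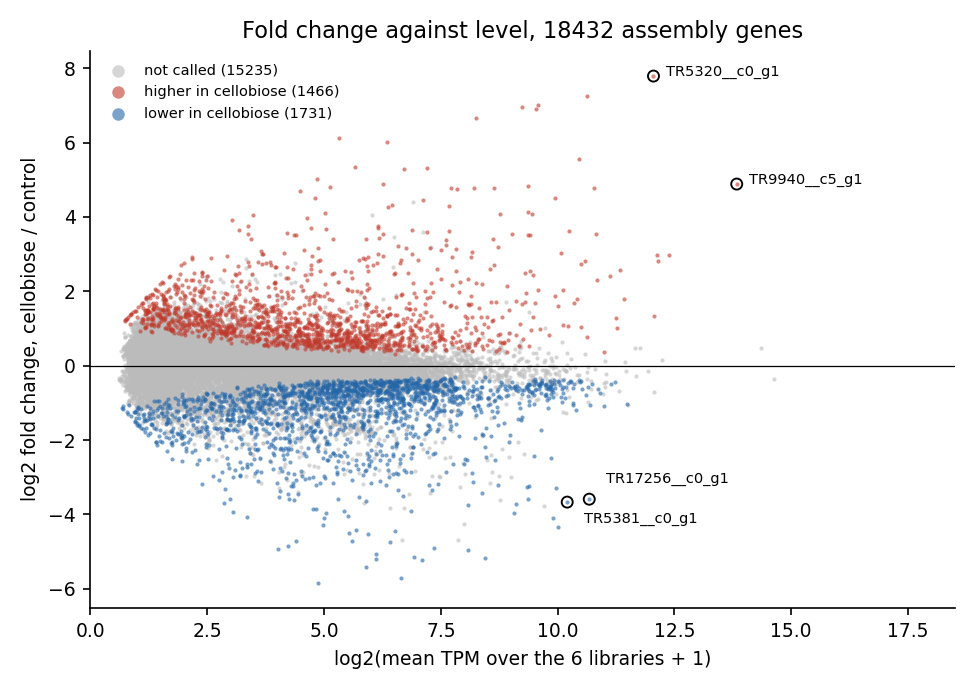
Each point is an assembly gene, with its mean level over the 6 libraries on the x axis as log2(TPM + 1) and its log2 fold change, cellobiose over control, on the y axis. Red points are the 1466 genes called higher, blue points the 1731 called lower, and the circled genes are the 4 named ones; calls at low levels needed a larger fitted change.

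Most called changes were smaller than 4-fold. Of the higher genes 877 (59.8%) rose at least 2-fold, 224 at least 4-fold, 77 at least 8-fold and 34 at least 16-fold, where folds are taken on log2(TPM + 1) and so come out too small for low genes. Of the lower genes 853 (49.3%) fell at least 2-fold, 258 at least 4-fold, 79 at least 8-fold and 25 at least 16-fold. Genes called and at least 2-fold changed in either direction made up 9.39% of those tested. Among genes with some value above 0 in both groups the largest called rise was 7.79 and the largest called fall 5.72 in absolute log2 fold change. The median standard error (SE) was 0.188 among the higher and 0.168 among the lower genes.

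TR9940__c5_g1 was the most abundant gene in each cellobiose library. It was at 29320, 28280 and 27117 TPM in the cellobiose libraries, against 905, 1004 and 956 TPM in the control libraries. The groups did not overlap and the 3 values of each group lay close together. Its mean was 28239 ± 1102 TPM (SD, n = 3) in cellobiose and 955 ± 49.4 TPM in control, a ratio of 29.6. The limma log2 fold change was 4.88 ± 0.11 (SE; adjusted p = 9.82e-06). It ranked between 138 and 158 by level in the control libraries. It has 4 assembled transcripts, and the same transcript held most of its TPM in both groups, 86.0% in cellobiose and 64.2% in control.

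This gene belongs to a cluster of 11 assembly genes that share the first part of their identifier; the cluster was singled out after its values were seen. Of its 8 tested genes 5, among them TR9940__c5_g1 itself, were called higher and 1 lower. Over all genes tested 7.95% were called higher and 9.39% lower. The log2 fold changes of the 8 genes lay between -0.88 and 4.88. Summed over the cluster, the level was 47632, 51328 and 48576 TPM in the cellobiose libraries, against 2899, 3823 and 3829 TPM in control. The cluster thus made up 4.76%, 5.13% and 4.86% of cellobiose TPM and 0.290%, 0.382% and 0.383% of control TPM. Genes of one cluster may be parts of one gene or near-identical copies between which reads were divided, so the values of single members are uncertain. In the glucose library the cluster held 0.192% of TPM.

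TR5320__c0_g1 had the next largest gain in TPM among called genes. It reached 9380, 8392 and 7573 TPM in the cellobiose libraries, against 61.8, 30.2 and 27.2 TPM in control. The groups differed 213-fold in their means, and the log2 fold change was 7.79 ± 0.30 (SE; limma, adjusted p = 4.76e-05). It ranked 4 to 7 by level in the cellobiose libraries and 2889 to 5459 in the control libraries.

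Among called genes TR17256__c0_g1 and TR5381__c0_g1 had the largest losses in TPM. TR17256__c0_g1 had 98.2, 409 and 330 TPM in the cellobiose libraries, against 2113, 4266 and 2600 TPM in control. TR5381__c0_g1 had 60.0, 282 and 245 TPM in the cellobiose libraries, against 1484, 3132 and 1874 TPM in control. For both genes the first cellobiose library was the lowest of the 6 and the second control library the highest. The level of TR17256__c0_g1 divided by that of TR5381__c0_g1 was 1.64, 1.45 and 1.35 in the cellobiose libraries and 1.42, 1.36 and 1.39 in the control libraries. In the other 10 libraries it ran from 0.862 in the third maltose library to 3.06 in the second poplar library, where both genes were under 1 TPM. The log2 fold change was -3.59 ± 0.56 (SE; limma, adjusted p = 0.00774) for TR17256__c0_g1 and -3.67 ± 0.61 (adjusted p = 0.00999) for TR5381__c0_g1. Without the first cellobiose library these values were -2.96 (adjusted p = 0.00321) and -2.96 (adjusted p = 0.00344).

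The third maltose library stood apart over all genes: its median tested gene was at 0.46 TPM and 7342 of the 18432 were listed at 0 there, while the first and the second maltose library had medians of 9.25 and 8.51 TPM. Under the other table's names it is the glucose library, and the libraries called glucose and first and second maltose here are the 3 maltose libraries. In the other cultures the rising genes were not at cellobiose levels, which is favoured by their choice for high cellobiose values. TR9940__c5_g1 was at 809 TPM in the glucose library, at 596, 800 and 41.2 TPM in the maltose libraries, at 76.0, 24.5 and 194 TPM in poplar and at 762, 498 and 1355 TPM in switchgrass. TR5320__c0_g1 had 37.5 TPM in glucose and 20.5, 41.2 and 0 TPM in maltose, and reached at most 1.27 TPM in poplar and 393 TPM in switchgrass. TR17256__c0_g1 had 576 TPM in glucose and 962, 922 and 39.8 TPM in maltose, between the ranges of cellobiose and control except in the third maltose library. It was at 0.55 to 11.0 TPM in the 6 plant libraries, as was TR5381__c0_g1 at 0.18 to 10.5 TPM; these libraries also differ in preparation.

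**Figure D2:**
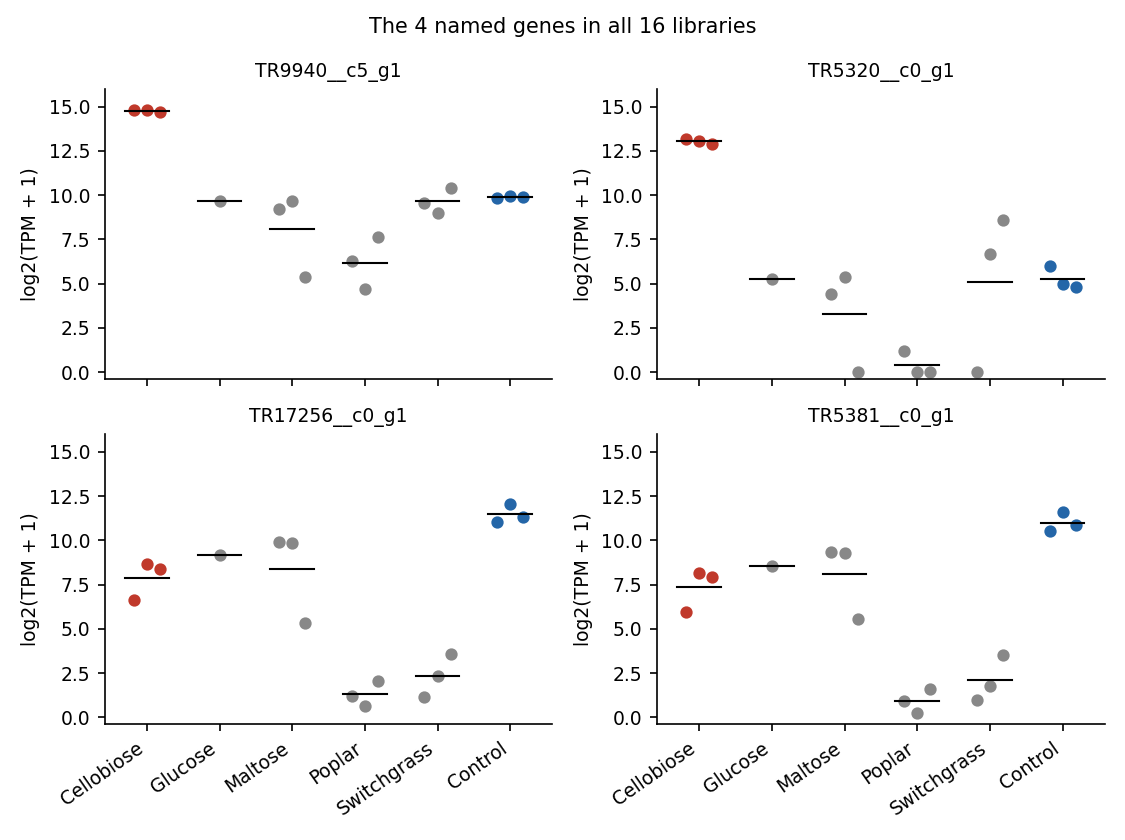
Level of the 4 named genes as log2(TPM + 1) in all 16 libraries, one point per library and a line at the mean of the log2 values. TR9940__c5_g1 and TR5320__c0_g1 are higher in each cellobiose library than in any other library, and TR17256__c0_g1 and TR5381__c0_g1 are highest in control. The genes were chosen by the cellobiose and control libraries, which favours this.

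The most abundant genes of the groups overlapped in part. Of the 10 genes with the highest mean in cellobiose, 7 were called higher and 0 lower; of the 10 highest in control, 0 were called higher and 2 lower. These lists shared 3 genes, and the lists of the 100 highest shared 59. Among the 100 highest in cellobiose 44 were called higher and 15 lower, and among the 100 highest in control 7 were called higher and 49 lower. Over all genes with a mean of 1000 TPM and over 56.0% were called in either direction, and choosing genes by a high mean in a group itself tilts the direction, so these counts are a description. The top 10 genes of each library made up 12.7%, 12.7% and 12.3% of TPM in the cellobiose libraries and 8.09%, 6.57% and 8.84% in the control libraries.

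The 1466 higher genes together made up 26.5% ± 0.612 of cellobiose TPM and 7.41% ± 0.0778 of control TPM (SD, n = 3 each). The 1731 lower genes held 15.6% ± 0.619 in cellobiose and 29.9% ± 1.31 in control. These shares describe genes chosen by the same libraries. Over all genes the differences of the means summed to 24.4% of TPM gained and as much lost. The 10 largest gains came to 7.82% of TPM, of which TR9940__c5_g1 gave 2.73%, while the 10 largest losses came to 2.39%. The 10 largest gains were thus a larger part of the total than the 10 largest losses.

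In the cultures that were not used to choose them, the higher genes held 8.42% of TPM in the glucose library, 7.45%, 6.84% and 0.602% in the maltose libraries (the third with 7342 tested genes at 0), 1.93% to 8.39% in poplar and 5.20% to 11.2% in switchgrass. All of these values lay below the 26.0% to 27.1% of the cellobiose libraries. The gene sets of this paragraph were chosen by the cellobiose and control libraries, so lower shares of the higher genes elsewhere are favoured by that choice. The lower genes held 25.0% in the glucose library and 26.2%, 24.4% and 2.54% in the maltose libraries, against 14.9% to 16.2% in cellobiose and 28.4% to 30.9% in control. They held 3.82% to 10.6% in poplar and 6.51% to 14.4% in switchgrass, below every cellobiose library. The plant libraries also differ in preparation. All tested genes together held 86.8% to 96.1% of TPM in the plant libraries, with medians of 1.52 to 6.9 TPM. In cellobiose and control all tested genes held 99.2% to 99.7%, with medians of 8.69 to 9.615 TPM. The 34 genes that rose at least 16-fold held 6.17% ± 0.171 in cellobiose and 0.171% ± 0.00461 in control, and 0.150% in the glucose library, 0.00627% to 0.155% in maltose, 0.0222% to 0.114% in poplar and 0.254% to 0.355% in switchgrass. The 25 genes that fell at least 16-fold held 0.0327% ± 0.00289 in cellobiose and 0.746% ± 0.165 in control. They held 0.0881% in the glucose library, 0.448%, 0.381% and 0.0443% in the maltose libraries, 0.147% to 0.372% in poplar and 0.208% to 0.661% in switchgrass. Whether the cultures differ in these shares was not tested.

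**Figure D3:**
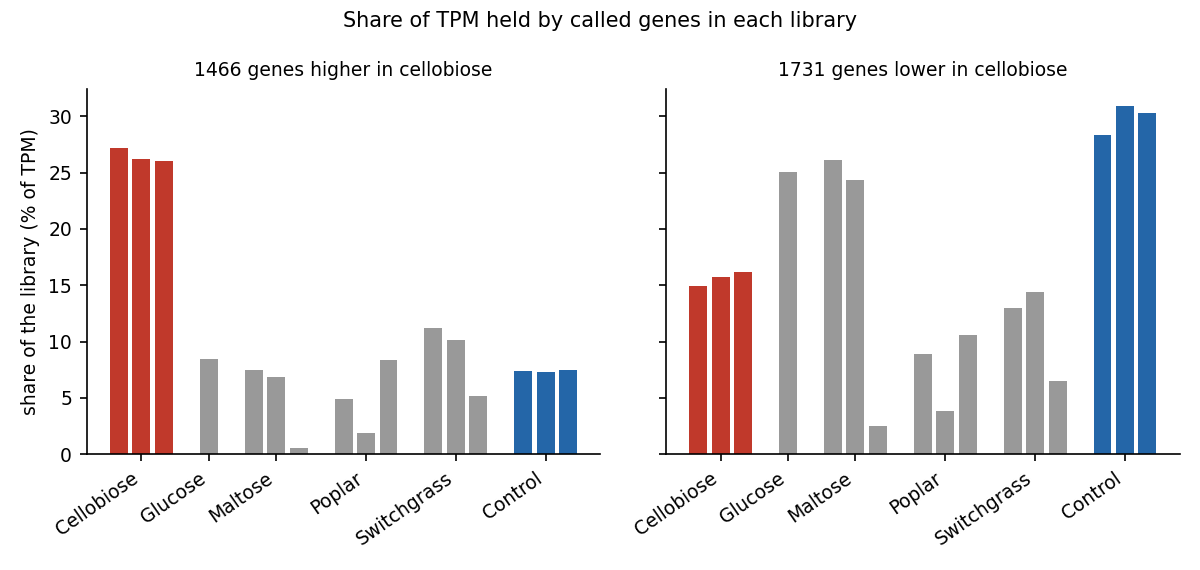
Share of each library's TPM held by the genes called higher (left) and lower (right) in cellobiose, one bar per library with cellobiose in red, control in blue and the other cultures in grey. The higher genes held 26.0% to 27.1% in cellobiose and at most 11.2% in any other library. Both gene sets were chosen by the cellobiose and control libraries, which favours this contrast. The lower genes held 24.4% to 26.2% in glucose and the first 2 maltose libraries. They held 2.54% to 14.4% in the third maltose and the 6 plant libraries, all below the 14.9% to 16.2% of cellobiose. The median of all tested genes was also lower there, 0.46 to 6.9 TPM against 8.69 to 9.615 TPM in cellobiose and control, and the plant libraries differ in preparation.

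Calls were more frequent among abundant genes. Of genes with a mean over the 6 libraries under 10 TPM, 8.78% were called (475 higher, 345 lower, of 9344). From 10 to 100 TPM the share was 22.3% (730 higher, 906 lower, of 7341), from 100 to 1000 TPM 41.4% (232 higher, 444 lower, of 1631), and at 1000 TPM and over 56.0% (29 higher, 36 lower, of 116). The background over all tested genes was 17.3%. The median SE of the log2 fold change was 0.342 in the lowest class, 0.163 and 0.130 in the next classes and 0.145 in the highest, so smaller changes passed the test in abundant genes; the part of precision in these shares was not tested. The direction also differed between the classes, but not steadily with level. Of the calls 57.9% were higher under 10 TPM, 44.6% from 10 to 100 TPM, 34.3% from 100 to 1000 TPM and 44.6% at 1000 TPM and over. Without the first cellobiose library these shares were 50.3%, 41.4%, 32.6% and 42.5%.

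**Figure D4:**
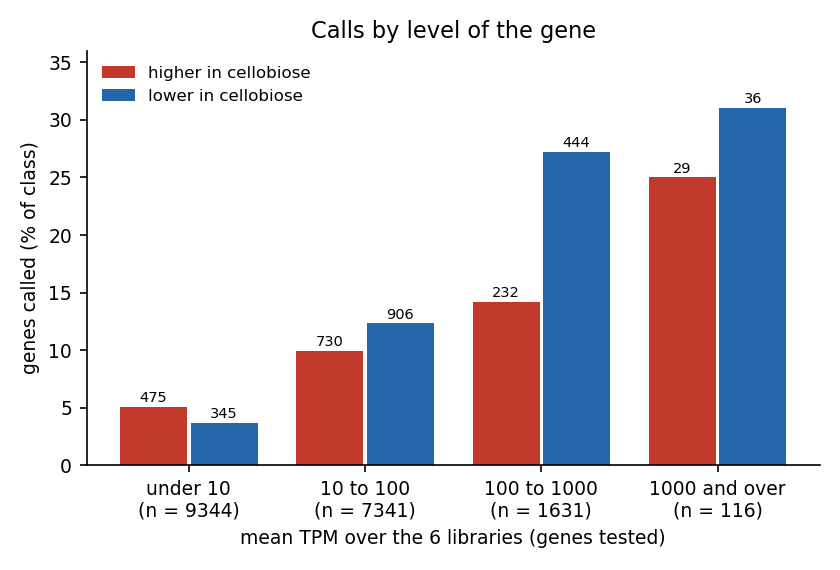
Share of tested genes called higher (red) and lower (blue) in cellobiose, by mean TPM over the 6 libraries, with the number of genes above each bar. Falls outnumbered rises by 444 to 232 between 100 and 1000 TPM, and rises outnumbered falls by 475 to 345 under 10 TPM.

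Many of the changed genes were expressed in both groups. Of the 1466 higher genes 189 had a mean under 1 TPM in control, and 158 were already at 100 TPM or more there; in cellobiose 337 were at 100 TPM or more. Of the 1731 lower genes 130 had a mean under 1 TPM in cellobiose and 347 stayed at 100 TPM or more, where 619 were at 100 TPM or more in control. Genes listed at 0 in all libraries of one group were few and mostly low. At 1 TPM or more in all 3 cellobiose libraries and at 0 in all 3 control libraries were 37 genes, with a median level of 2.71 TPM and a highest mean of 14.4 TPM in cellobiose. At 0 in all 3 cellobiose libraries and at 1 TPM or more in all 3 control libraries were 29 genes, with a median of 2.47 TPM and a highest mean of 56.3 TPM in control. Of these, 36 and 28 were among the called genes, against 17.3% of all genes tested, and no fold is given for them singly. They were chosen from the same libraries so that the groups could not overlap, so these calls are not a separate result. Without the first cellobiose library the counts were 101 and 42, where the rule asked for fewer libraries and so could only keep or add genes.

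Of 3135 clusters with at least 2 tested genes, 260 had at least 2 called genes. In those 260 the called genes were all higher in 114 and all lower in 116, and 30 held both (88.5% in one direction). In the narrower unit, the identifier up to the gene number, 55 of 113 were all higher, 48 all lower and 10 mixed. Of all calls 45.9% were higher, so some called genes would share a direction whatever their cluster, and how many was not tested. Genes of one cluster can share sequence and reads, so they are not independent.

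Genes with 1 transcript were called in 16.5% of cases (887 higher, 1203 lower), genes with 2 in 18.7% (243 higher, 251 lower) and genes with 3 or more in 19.8% (336 higher, 277 lower). These shares lay close to the 17.3% called over all genes tested. The median levels of the classes were 7.33, 13.9 and 12.1 TPM. At matched levels the shares called were 7.62%, 10.4% and 13.2% under 10 TPM, 22.0%, 21.7% and 23.7% from 10 to 100 TPM, and 40.5%, 47.5% and 44.1% from 100 to 1000 TPM. At 1000 TPM and over they were 55.9% of 102 genes, 71.4% of 7 and 42.9% of 7. Of the higher genes 472 had at least 2 tested transcripts; in 94 of them every transcript was called higher, and in 2 a transcript was called lower. Of the 468 such lower genes 86 had every transcript called lower and 8 a transcript called higher. The transcript with the highest mean differed between cellobiose and control in 24.2% of these higher genes, 22.0% of these lower genes and 20.0% of the 3286 genes of this kind that were not called. Among those 3286 genes, 14 had both a transcript called higher and a transcript called lower.

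A gene that was not called was not thereby shown to be steady. Of the 15235 genes not called, 7703 (50.6%) had a 95% confidence interval of the log2 fold change within 2-fold in both directions. The share was 78.9% of those at 10 TPM or more and 28.3% of those below, each interval taken by itself without adjustment over genes.

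The number of calls varied with the library left out. It was 3410 without the first cellobiose library, 2065 without the second and 1937 without the third. It was 1908 when control replicate 1 was left out, 1735 for replicate 2 and 1589 for replicate 3. The first cellobiose library was the only one whose removal raised the count. Lower calls outnumbered higher calls without any 1 of the cellobiose libraries and without the first or second control library, and without the third control library there were 795 higher and 794 lower. The 4 named genes were called each time. With the spread taken from all 16 libraries 81 genes were called (58 higher, 23 lower), and of the named genes TR5320__c0_g1 kept its call (adjusted p = 0.0204). Under the other table's names 25 genes were called (19 higher, 6 lower), and the log2 fold changes of TR17256__c0_g1 and TR5381__c0_g1 turned positive, at 1.06 and 1.18 (limma, adjusted p = 0.978 each).

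**Figure D5:**
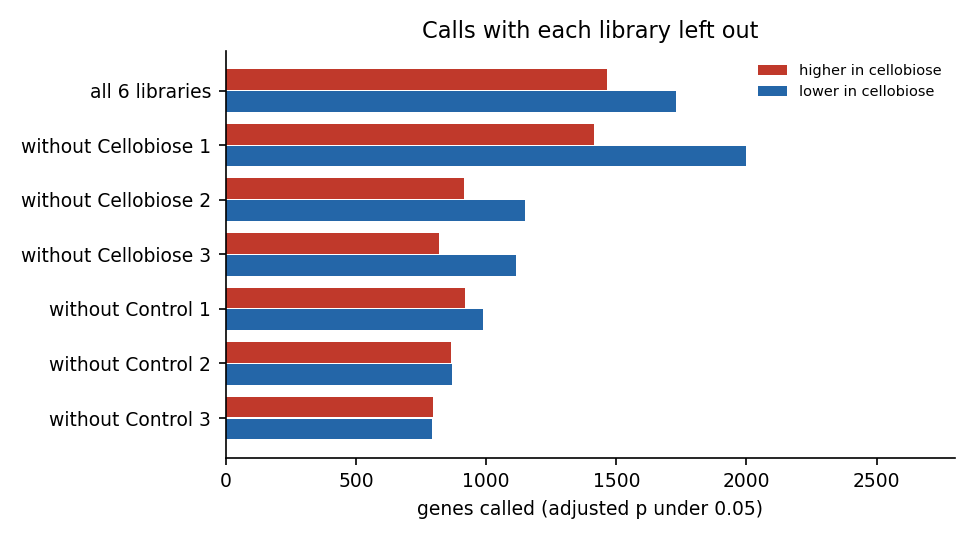
Number of genes called higher (red) and lower (blue) in cellobiose with all 6 libraries and with each library left out in turn. Leaving out the first cellobiose library gave 1413 higher and 1997 lower, and leaving out the third control library gave the fewest, 795 and 794.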

How the data were processed

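Expression was measured by RNA sequencing. The authors deposited 2 tables of 45286 assembled transcripts in TPM; the one presented as holding expected counts has columns that sum to 1000000 within 0.87, so its values were taken as TPM. Per the submitters' processing notes RSEM was used, with no version named. Which assembler, aligner or filters were used is not given in the sources used here. Transcripts were summed to 27990 assembly genes by removing the transcript suffix. The 3 cellobiose and 3 control libraries were fitted alone, on log2(TPM + 1), by limma 3.58.1 (R 4.3.3) with its trend option, for genes with at least 1 TPM in at least 3 of the 6 libraries. P-values were adjusted by Benjamini-Hochberg over the 18432 genes tested and called under 0.05. The script was tested on simulated data. Named genes are the 2 largest gains and 2 largest losses in mean TPM among called genes whose groups do not overlap. The comparison, the gene classes and this rule were chosen with earlier results of these data known. Lists of enzyme genes could not be evaluated, since 0 identifiers matched a name. Alternatives were other pseudocounts, filters, scaling, library sets, weights, a replicate block, a test against a 1.5-fold change, transcripts tested one by one and the other table's column names. Counts of classes without the first cellobiose library were added after seeing the data.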

Additional observations from a re-analysis of the deposited data

How the results depend on the processing

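The count of 3197 calls (1466 higher, 1731 lower) stayed within 1.5 times under pseudocounts of 0.1 and 0.5, 3 other filters on low values, median-of-ratios scaling, limma without the intensity trend and transcripts tested one by one. The share called did not stay alike, since the number tested differed from the 18432 of the main fit. It was 2779 of 9098 genes at a mean of at least 10 TPM and 2631 of 26319 genes without a filter. One by one, 3228 of 25739 transcripts were called. With all 16 libraries as 6 group means there were 81 calls (58 higher, 23 lower), all 81 among the 3197, and TR9940__c5_g1 (adjusted p = 0.0723), TR17256__c0_g1 (0.215) and TR5381__c0_g1 (0.149) lost their calls; this fit takes its spread from all groups. A weight per library gave 4801 (2202 higher, 2599 lower) and a test against a 1.5-fold change 704 (353 higher, 351 lower). With 1 library left out the count ran from 1589 to 3410, the higher genes from 795 to 1413 and the lower from 794 to 1997. With the replicate number as a block there were 1858 (825 higher, 1033 lower) and the 4 named genes kept their calls. Deviations of same-numbered libraries from their group means correlated at -0.044, 0.004 and 0.004 across genes. Correlations over so few libraries cannot settle whether the numbers pair the libraries. Under the other table's names there were 25 calls (19 higher, 6 lower), 10 of them among the 3197; the log2 fold changes of TR17256__c0_g1 and TR5381__c0_g1 turned to 1.06 and 1.18 (adjusted p = 0.978 each), and TR9940__c5_g1 was not called (3.46, adjusted p = 0.121), because other libraries are then compared. The adjusted p of TR5320__c0_g1 was 0.0204 or lower in every alternative run on genes with the names used here. Under the other table's names it was 0.000465 (limma), but that is a different comparison. It sets the libraries called switchgrass here (0, 101 and 393 TPM) against those called poplar here (1.27, 0 and 0 TPM), and these values overlap. Depth is unknown, so no counting error could be given.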
